A study of Mus musculus with 10 samples.

Results

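The genes described here are 10 members of the AP-1 and immediate early response: the AP-1 subunit genes Fos, Fosb, Fosl2, Jun, Junb and Jund, and the related genes Atf3, Egr1, Ier2 and Ier3. They were taken by symbol from the deposited tables of basal and suprabasal keratinocytes. All 10 were found with the status OK in both tables, among 11290 such loci of basal and 11464 of suprabasal cells. RNA was sequenced from skin keratinocytes of 4-day-old FVB/N mice after sorting by flow cytometry. There were 4 groups: basal wild type (3 samples), basal bitransgenic (2 samples), suprabasal wild type (3 samples) and suprabasal bitransgenic (2 samples). The bitransgenic mice (BT in the labels) model Hutchinson-Gilford progeria syndrome, a premature ageing disease caused by progerin, a truncated lamin A. The labels name neither the 2 transgenes nor the cells in which they are driven, and whether samples of the layers come from the same animals is not stated. Their titles share 6 stems, and 4 of these, 3 of them wild type, recur across layers.

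AP-1 is a transcription factor made of a pair of basic leucine zipper proteins, usually one of the Fos family with one of the Jun family or a Jun pair. Immediate early genes are transcribed within minutes of growth factor, wound or stress signals, without new protein synthesis, through kinase cascades that act on factors already bound to their promoters. In epidermis, AP-1 subunits take part in keratinocyte proliferation, differentiation, inflammation and wound repair. The same genes are also known to be induced while tissue is dissociated and cells are sorted.

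Each group is represented by 1 level, the authors' pooled value, read as FPKM (fragments scaled by transcript length and library size), so a level carries no error, and sequencing depth is unknown. Changes are log2 ratios of the bitransgenic to the wild type level. The ± beside a change is the standard error (SE) implied by the authors' p-value, and the 95% interval follows from it. For Junb and Ier2, whose p is the smallest in the tables (5e-05), the SE is an upper bound. A gene was called where the authors' q, their adjusted p, was under 0.05. Over all loci the median change was -0.12 (basal) and -0.08 (suprabasal). The locus holding Xist, the long RNA of the inactive X chromosome in females, was at 0.258 and 107.9 FPKM in basal wild type and bitransgenic cells and at 0.236 and 102.7 in suprabasal cells. The labels give no sex, and its part in the results was not tested.

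Of the Fos family, Fos, Fosb and Fosl2 all fell in basal cells of bitransgenic mice, and their suprabasal levels were lower by similar amounts without passing the authors' threshold. Fos encodes the founding partner of Jun in AP-1. Its level was 1120.2 FPKM in basal wild type, 365 in basal bitransgenic, 867 in suprabasal wild type and 332 in suprabasal bitransgenic cells. The bitransgenic level was the lower one in each layer, and the log2 changes were -1.62 ± 0.52 and -1.39 ± 0.48. The authors' deposited table gave Fos a q of 0.0371 in basal cells and 0.141 in suprabasal cells. Fos was among the most abundant transcripts of wild type basal cells, at rank 51 of all loci, and stood at rank 156 in bitransgenic cells.

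Fosb encodes a close relative of Fos. Its level was 380 FPKM in basal wild type, 107 in basal bitransgenic, 300.3 in suprabasal wild type and 113 in suprabasal bitransgenic cells. The log2 changes were -1.82 ± 0.61 and -1.42 ± 0.68, and the basal one was the largest fall of the 10 genes in that layer. For Fosb the q in the authors' deposited table was 0.0418 (basal) and 0.432 (suprabasal). Fosl2 encodes Fra-2, a Fos-related protein without the strong activation domain of Fos. It had the lowest level of the 10 genes in every group, at 72.2 and 35.2 FPKM in basal and 68.9 and 35.1 in suprabasal cells (wild type, then bitransgenic). Its changes were -1.04 ± 0.30 and -0.97 ± 0.36, close to a halving in both layers. The authors' deposited table gave Fosl2 a q of 0.0371 in basal cells and 0.146 in suprabasal cells. The 3 basal calls in the Fos family hold only at the deposited q. After a Benjamini-Hochberg readjustment of the p over every basal locus, the adjusted p was 0.149 for Fos, 0.196 for Fosb and 0.0620 for Fosl2.

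The promoters of the 6 AP-1 subunit genes and Atf3, whose levels were all lower in bitransgenic cells, are shown whether called or not and whether they hold a motif or not. They are RefSeq's windows for GRCm38.p6 (mm10), 5′ to 3′ on the strand of the gene. For Fos (chr12:85473640-85473939, plus strand) and Junb (chr8:84978699-84978998, minus strand) the window runs from base -250 to base 50, counted from the first transcribed base. For Fosb (chr7:19310036-19310165, minus), Jun (chr4:95052213-95052342, minus) and Atf3 (chr1:191183324-191183453, minus), and for Fosl2 (chr5:32136352-32136481, plus) and Jund (chr8:70697619-70697748, plus), it runs from base -120 to base 10. Capitals mark TGACG on either strand, which is the core of a cyclic AMP response element, TGACATCA on either strand, which is the AP-1 site of the Jun promoter, and TATAAA on either strand.
Fos: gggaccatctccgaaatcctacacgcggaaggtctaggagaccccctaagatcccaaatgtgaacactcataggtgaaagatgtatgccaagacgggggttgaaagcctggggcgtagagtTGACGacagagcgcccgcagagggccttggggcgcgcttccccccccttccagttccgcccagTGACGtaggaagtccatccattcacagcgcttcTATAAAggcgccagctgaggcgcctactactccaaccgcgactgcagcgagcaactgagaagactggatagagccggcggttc
Fosb: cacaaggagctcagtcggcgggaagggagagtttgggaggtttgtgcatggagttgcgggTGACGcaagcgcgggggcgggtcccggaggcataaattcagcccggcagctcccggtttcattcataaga
Fosl2: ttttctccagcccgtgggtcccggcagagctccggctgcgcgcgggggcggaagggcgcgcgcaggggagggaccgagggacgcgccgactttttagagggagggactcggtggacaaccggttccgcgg
Junb: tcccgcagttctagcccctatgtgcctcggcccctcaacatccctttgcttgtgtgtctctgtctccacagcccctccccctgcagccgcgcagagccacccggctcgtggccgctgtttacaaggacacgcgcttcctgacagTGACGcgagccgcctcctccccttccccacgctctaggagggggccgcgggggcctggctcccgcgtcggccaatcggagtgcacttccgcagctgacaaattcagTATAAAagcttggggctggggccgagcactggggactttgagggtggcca
Jun: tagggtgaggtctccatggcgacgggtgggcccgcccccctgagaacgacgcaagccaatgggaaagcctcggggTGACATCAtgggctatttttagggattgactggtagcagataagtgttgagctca
Jund: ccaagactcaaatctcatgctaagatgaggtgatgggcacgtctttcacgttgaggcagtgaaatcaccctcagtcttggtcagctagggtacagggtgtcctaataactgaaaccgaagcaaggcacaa
Atf3: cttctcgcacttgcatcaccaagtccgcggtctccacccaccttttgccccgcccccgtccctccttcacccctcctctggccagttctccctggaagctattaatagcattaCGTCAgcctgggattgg
TGACG occurs at bases -129 to -125 and -66 to -62 of Fos, -60 to -56 of Fosb, -106 to -102 of Junb and, on the opposite strand, -7 to -3 of Atf3. TGACATCA occurs at bases -45 to -38 of Jun. The windows of Fosl2 and Jund hold none of the marked motifs. TATAAA lies at bases -33 to -28 of Fos, and in Junb it lies at bases 1 to 6 of the RefSeq start. RefSeq windows of 8 of the 10 genes were searched, all but those of Egr1 and Ier2. In their full 300 bases TGACG was present in 4 of 8, against 20.8% of the 32851 promoters searched. TGACATCA was present in 1 of 8 against 3.62%, and TATAAA in 2 of 8 against 13.6%. The complete element TGACGTCA (1.79% of all promoters), TGANTCA (7.81%) and the CArG box bound by serum response factor (1.63%) had no match in these windows. They begin at base -250, and Egr1 and Ier2 were not searched. The missing matches therefore do not show that the genes lack such sites. The motifs were chosen after the sequences had been seen, TGACG lies within TGACGTCA, and a match is only a match of letters.

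Of the Jun family, Junb fell in both layers, Jund fell in suprabasal cells, and Jun had lower levels that passed the threshold in neither layer. Junb encodes a Jun protein with weaker activating power than Jun that restrains keratinocyte inflammation in mice. Its level was 266 FPKM in basal wild type, 96.0 in basal bitransgenic, 229 in suprabasal wild type and 52.4 in suprabasal bitransgenic cells. The bitransgenic level was thus 36.1% of wild type in basal and 22.8% in suprabasal cells. The log2 changes were -1.47 ± 0.36 and -2.13 ± 0.53, the suprabasal one being the largest of the 10 genes in that layer. For Junb the q in the authors' deposited table was 0.00858 (basal) and 0.0161 (suprabasal), and both calls held when p was readjusted over all loci (0.0128 and 0.0164). In the order of all suprabasal loci by level, Junb stood at rank 270 in wild type and at rank 1247 in bitransgenic cells.

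Jund encodes the Jun protein that is expressed most evenly and depends least on stimulation. Its level was 141 FPKM in basal wild type, 92.5 in basal bitransgenic, 149 in suprabasal wild type and 45.6 in suprabasal bitransgenic cells. The wild type levels of the layers were near each other, and the suprabasal bitransgenic level stood apart from the other 3. The log2 changes were -0.61 ± 0.34 and -1.70 ± 0.46. The authors' deposited table gave Jund a q of 0.466 in basal cells and 0.0356 in suprabasal cells. Readjusted over all loci the suprabasal value was 0.0488, and with the fold changes centred on the median locus before readjustment the call of Jund was lost. An antisense transcript, Gm11175, overlaps Jund.

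Jun encodes the main transactivating partner of Fos. Its level was 784 FPKM in basal wild type, 414 in basal bitransgenic, 718 in suprabasal wild type and 256 in suprabasal bitransgenic cells. The log2 changes were -0.92 ± 0.56 and -1.49 ± 0.51. For Jun the q in the authors' deposited table was 0.466 (basal) and 0.141 (suprabasal). The locus of Jun in the tables spans 118840 bases and also covers the antisense gene Junos and 3 other annotated RNAs, so its level may hold reads of these.

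Ier2 fell in both layers, whereas Egr1 and Atf3 had lower bitransgenic levels that were not called and Ier3 differed least. Ier2 encodes a nuclear protein induced early by growth factors. Its level was 176 FPKM in basal wild type, 71.5 in basal bitransgenic, 139 in suprabasal wild type and 41.8 in suprabasal bitransgenic cells. The log2 changes were -1.30 ± 0.32 and -1.73 ± 0.43. The authors' deposited table gave Ier2 a q of 0.00858 in basal cells and 0.0161 in suprabasal cells, and the readjusted values were 0.0128 and 0.0164. With the fold changes centred before readjustment, the basal call of Ier2 was lost. The centred test uses the SE of Ier2, which is an upper bound, so it cannot show whether the call would be lost.

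Egr1 encodes a zinc finger factor that is activated through serum response factor and its ternary complex partners. Its level was 885 FPKM in basal wild type, 290.3 in basal bitransgenic, 548 in suprabasal wild type and 257 in suprabasal bitransgenic cells. Its log2 changes were -1.61 ± 0.61 and -1.09 ± 0.52, with 95% intervals of -2.81 to -0.41 and -2.12 to -0.07. The basal change of Egr1 was close in size to that of Fos, which was called. For Egr1 the q in the authors' deposited table was 0.0959 (basal) and 0.438 (suprabasal).

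Atf3 encodes a stress-induced basic leucine zipper factor that pairs with Jun proteins. Its locus is merged with Fam71a in the tables. The level was 454 FPKM in basal wild type, 292 in basal bitransgenic, 236 in suprabasal wild type and 73.7 in suprabasal bitransgenic cells. The log2 changes were -0.63 ± 0.72 and -1.68 ± 0.71, the widest errors of the 10 genes. The authors' deposited table gave Atf3 a q of 0.701 in basal cells and 0.289 in suprabasal cells. Ier3 encodes a small membrane protein that modulates survival and ERK signalling. Its levels were 92.0 and 77.0 FPKM in basal and 76.5 and 59.3 in suprabasal cells (wild type, then bitransgenic). The log2 changes of -0.26 ± 0.28 and -0.37 ± 0.35 had intervals that include 0 in both layers (-0.80 to 0.29 and -1.04 to 0.31).

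**Figure D1:**
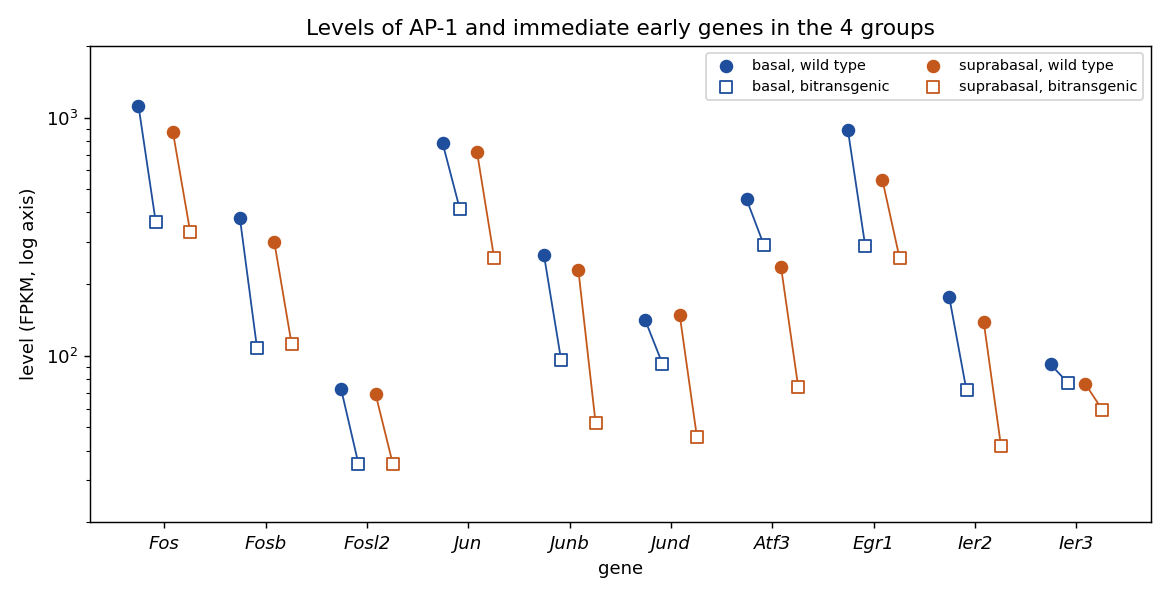
Level of each of the 10 genes in FPKM on a log axis. Circles are wild type, open squares bitransgenic, blue basal and orange suprabasal groups, each point is the authors' 1 pooled value of a group, and a line joins the genotypes of a layer. Every square lies below its circle, and the drop is smallest for Ier3.

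**Figure D2:**
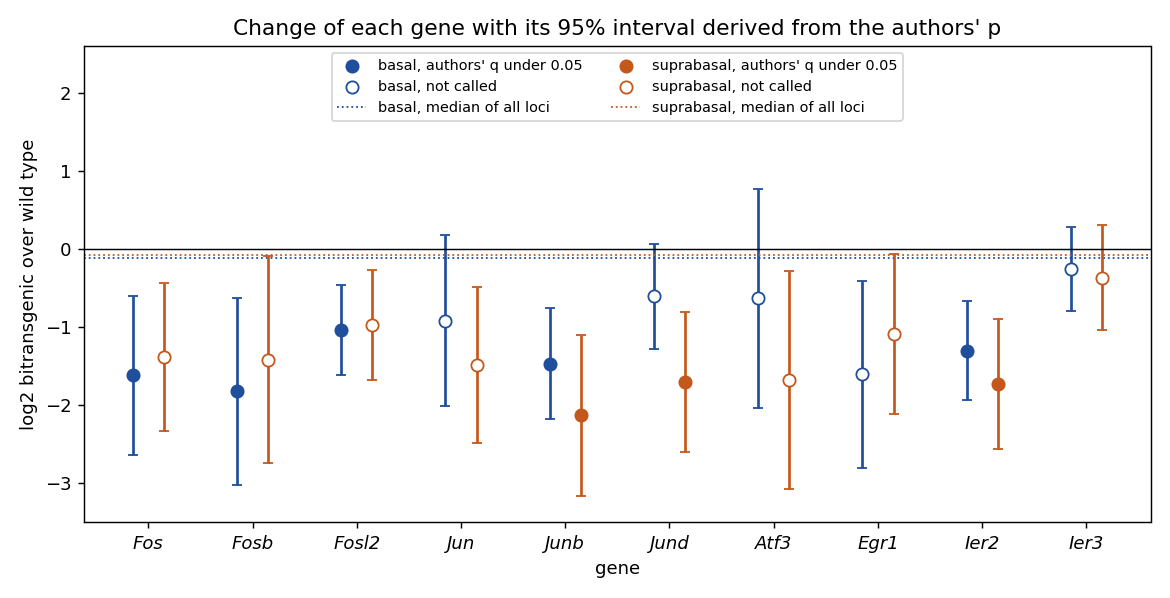
Change of each of the 10 genes as log2 bitransgenic over wild type, with bars for the 95% interval derived from the authors' p. Filled points passed the authors' q of 0.05, which 5 genes did in basal (blue) and 3 in suprabasal cells (orange), and dotted lines mark the median of all loci.

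As a group, 5 of the 10 genes were called lower in basal cells (Fos, Fosb, Fosl2, Junb and Ier2), against 1.39% of all 11290 loci. In suprabasal cells 3 were called lower (Junb, Jund and Ier2), against 0.419% of all 11464 loci. None was called higher, where the share over all loci was 0.257% in basal and 0.0523% in suprabasal cells. Junb and Ier2 were called lower in both layers, as were 0.227% of the 10583 loci with the status OK in both tables. The 10 genes were chosen with earlier results of these data known. The shares over all loci, here and below, therefore stand beside the counts as a description and are no test of the group. The basal count fell to 2 (Junb and Ier2) when the authors' p was readjusted over all loci, and to 1 (Junb) when the changes were also centred on the median locus. The loss of Ier2 with centring rests on an SE that is an upper bound.

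The sizes of the changes showed the group more evenly than the calls. All 10 genes were below 0 in both layers, also after centring, and before centring 60.3% of all basal and 56.6% of all suprabasal loci were below 0. The median change was -1.17 in basal and -1.45 in suprabasal cells. At least 2-fold lower were 6 genes in basal cells against 10.7% of all loci, and 8 genes in suprabasal cells against 8.30%. All 10 are expressed well above the median locus, and folds of weakly expressed loci vary more. Among loci with a mean level of at least 20 FPKM, a limit set after the values were seen, 4.05% in basal and 4.77% in suprabasal cells were at least 2-fold lower. The 95% interval lay wholly below 0 for 6 genes in basal and 9 in suprabasal cells, all but Ier3, against 6.22% and 5.16% of all loci.

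The order of the genes by level differed between the genotypes. In basal wild type cells the order from the highest was Fos, Egr1, Jun, Atf3, Fosb, Junb, Ier2, Jund, Ier3 and Fosl2. In basal bitransgenic cells Jun led with 414 FPKM, before Fos with 365, and Atf3 and Egr1 followed at nearly the same level (292 and 290.3). In suprabasal cells Fos led in both genotypes. Ier3 stood above only Fosl2 in suprabasal wild type cells, but above Junb, Jund and Ier2 as well in suprabasal bitransgenic cells. Since levels carry no error, neighbours in these orders cannot be separated by a test.

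Summed over Fos, Fosb, Fosl1 and Fosl2, the Fos family amounted to 1656 FPKM in basal wild type, 580.3 in basal bitransgenic, 1299 in suprabasal wild type and 506 in suprabasal bitransgenic cells. The sums of Jun, Junb and Jund were 1191, 603, 1096 and 354 FPKM in the same order. The Fos family sum was 1.39 times the Jun family sum in basal wild type and 0.963 times in basal bitransgenic cells, and 1.19 and 1.43 times in suprabasal cells. The ratio was thus lower in bitransgenic cells of one layer and higher in those of the other, with no error to set beside either shift. Junb made up 22.3% of the Jun family in basal wild type and 15.9% in basal bitransgenic cells, and 20.9% and 14.8% in suprabasal cells. Fosl1, which encodes Fra-1 and is no member of the 10, was 83.0 and 72.6 FPKM in basal and 62.7 and 27.0 in suprabasal cells, and was not called.

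The next question was whether the change differed between the layers. A two-sided Wald z-test of the suprabasal minus the basal log2 change, with Benjamini-Hochberg adjustment over 10583 loci, called none of the 10 genes, against 0.0378% of all loci. At an unadjusted p under 0.05 it also called none of them, against 3.08% of all loci. Jund came nearest, with a difference of -1.09 and a 95% interval of -2.21 to 0.03. These values take the layers to be independent, while 4 of the 6 title stems recur across them. With an assumed correlation of 0.5 the interval of Jund was -1.90 to -0.29, and Jund alone passed an unadjusted p under 0.05, as did 10.4% of all loci, but not after adjustment. Without that assumption the other intervals were wide: -1.16 to 1.62 for Fos, -1.91 to 0.59 for Junb, -1.47 to 0.62 for Ier2 and -3.03 to 0.94 for Atf3. For Junb and Ier2 the SE is an upper bound in both layers. Their intervals may therefore be too wide, and their test errs towards no difference. Differences of more than 2-fold between the layers in either direction were therefore compatible with the data for Fos, and larger falls in suprabasal cells for Junb, Ier2 and Atf3. The direction of the difference was mixed, with Fos, Fosb, Fosl2 and Egr1 less reduced in suprabasal than in basal cells and the other 6 more reduced. Every Jun family gene was among the latter.

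**Figure D3:**
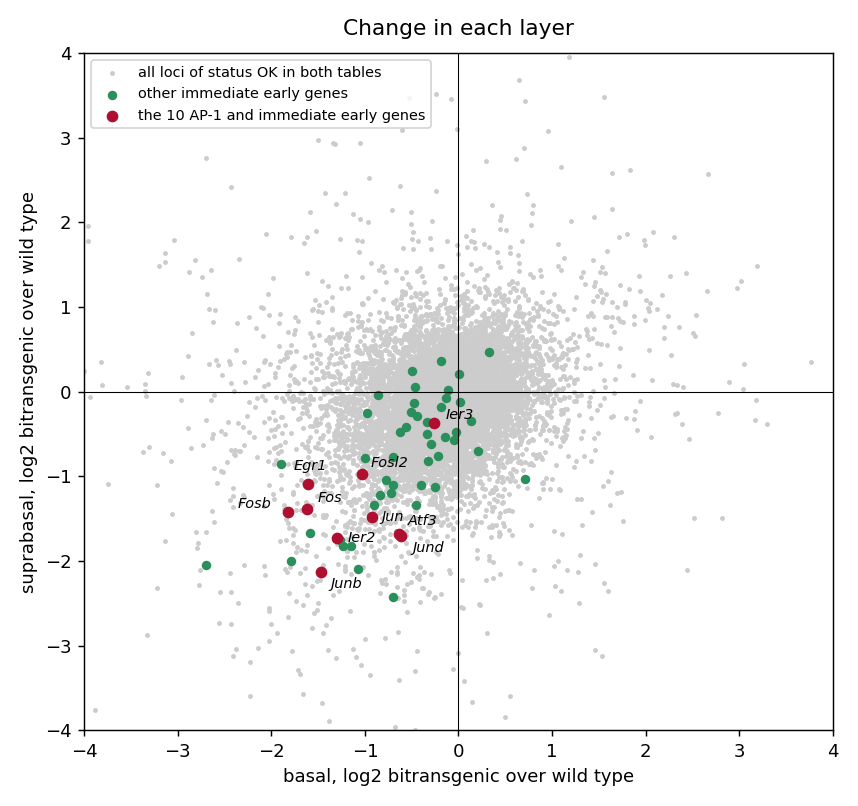
Change in basal cells (horizontal axis) against change in suprabasal cells (vertical axis), both log2 bitransgenic over wild type. Red points are the 10 genes, green points other immediate early genes and grey points all 10583 loci with the status OK in both tables, of which 62 lie outside the axes. The 10 genes all lie below and to the left of 0, with Ier3 nearest to the origin.

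Between layers of the same genotype, most of the 10 genes had the lower level in suprabasal cells. This held for 9 of 10 in wild type, all but Jund, and for 9 of 10 in bitransgenic cells, all but Fosb. The median log2 ratio of suprabasal to basal level was -0.30 in wild type and -0.54 in bitransgenic cells, against -0.04 and -0.03 over loci of at least 1 FPKM. Atf3 differed most between layers, with a suprabasal level 0.520 times the basal one in wild type and 0.252 times in bitransgenic cells. Fosl2 was nearly level, at 0.953 and 0.996 times. The tables of the layers were made separately, so these ratios are a description.

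Gene structure, which played no part in choosing the genes, varied among them. In GENCODE M21 gene models, 4 of the 10 genes (Jun, Junb, Jund and Ier2) have 1 exon and hence no intron, against 2.67% of 9208 genes compared. The median span from first to last exon was 3286 bases for the 10 genes and 22848 for all, but the span of Fosl2 was 22042. Copies of ATTTA, the core of AU-rich elements that shorten the life of a transcript, numbered 4 in the 3′ untranslated region of Fos, 4 in Jun, 8 in the longer one of Fosl2 and 5 in Ier3, but none in Ier2. At least 3 copies were present in 5 of 10 genes against 38.4% of all genes, and the median density was 2.20 per kilobase against 1.37. Ier3, the least changed gene, had the highest density (8.16) and Ier2, called in both layers, the lowest. Ier2 and Junb lie 314 kb apart on chromosome 8, and Jund lies 13.96 Mb from Ier2 on that chromosome. The loci were chr12:85473890-85477273 for Fos, chr7:19302695-19310101 for Fosb, chr5:32135677-32157835 for Fosl2, chr8:84976838-84978748 for Junb, chr8:70697739-70701689 for Jund and chr8:84661331-84662852 for Ier2. Those of Jun, Atf3, Egr1 and Ier3 were chr4:95048479-95167318, chr1:191160777-191183340, chr18:34859823-34864984 and chr17:35821684-35822923 (mm10, counted from 1).

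Other immediate early genes were lower more unevenly. Of 46 loci for 45 such genes, 7 were called lower in basal and 4 in suprabasal cells, against 1.39% and 0.419% of all loci. None was called higher, against 0.257% and 0.0523%, and these shares apply to the lists below as well. The median changes were -0.47 and -0.66, and 40 of the 46 loci were below 0 in each layer. Among those not called, Nr4a1 was 89.1 and 87.2 FPKM in basal cells. Ptgs2, also not called, was 22.0 and 36.0 FPKM in basal but 9.31 and 4.54 in suprabasal cells. Klf2, a zinc finger factor, changed from 15.8 to 2.44 FPKM in basal and from 15.7 to 3.81 in suprabasal cells and was called in both. Socs3, the feedback inhibitor of STAT3 signalling, was called in both with 117 to 48.5 and 74.6 to 22.1 FPKM. Zfp36l2, which promotes decay of AU-rich transcripts, and Gadd45g, a growth arrest gene, were also called lower in both layers. Gadd45g was 101 and 48.3 FPKM in basal and 68.5 and 16.0 in suprabasal cells. Klf6, Rhob and Cyr61, a secreted matrix protein, were called in basal cells and not in suprabasal cells, but for none of them did the difference between layers pass its test. Cyr61 fell from 206 to 55.1 FPKM in basal cells and was 121 and 66.7 in suprabasal cells. After readjustment over all loci, Klf2, Socs3 and Cyr61 kept their basal calls, and Klf2, Socs3 and Gadd45g their suprabasal ones.

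Other AP-1 and basic leucine zipper genes had smaller median changes, -0.22 over 24 basal and -0.52 over 25 suprabasal loci. Of the basal loci 1 was called lower, Maff, and none higher. Maff, a small Maf protein, fell from 17.5 to 8.50 FPKM in basal cells and was 17.6 and 12.2 in suprabasal cells. Readjusted over all loci, the call of Maff was lost (0.188). Of 32 genes for receptors, kinases and serum response factor partners upstream of the 10 genes, none was called in either layer, and the medians were -0.01 and -0.03. At an unadjusted p under 0.05, 1 of them was lower in each layer, and it was Map2k6 in both. Its levels were 14.1 and 7.33 FPKM in basal and 9.22 and 3.98 in suprabasal cells, with log2 changes of -0.95 and -1.21. The first of that list were Egfr with 44.1 and 30.8 FPKM in basal cells, Erbb2 with 27.9 and 22.9, and Hras with 57.4 and 67.7. These are transcript levels and say nothing of kinase activity.

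Genes described as AP-1 targets in keratinocytes did not share the direction of the 10 genes. Of 25 basal loci 3 were called higher and 1 lower, the median being 0.41, and of 23 suprabasal loci none was called, the median being 0.39. At an unadjusted p under 0.05, 3 of the suprabasal loci were higher and 1 was lower. S100a8 and S100a9, the alarmins of inflamed epidermis, rose in basal cells from 178 to 704 and from 50.7 to 250.4 FPKM. In suprabasal cells they were not called but also higher, at 324 and 1126 FPKM for S100a8 and 87.5 and 311 for S100a9. The merged locus of Sprr1b and Gm9774, Sprr1b being a cornified envelope precursor, rose from 45.8 to 162 FPKM in basal cells. It was 131 and 304 FPKM in suprabasal cells, where it was not called. Lor, the envelope protein loricrin, fell from 17.2 to 3.18 FPKM in basal cells and was 27.6 and 29.6 in suprabasal cells. The basal rises held when readjusted over all loci, and the call of Lor did not (0.0513).

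Genes of heat shock and of the response to tissue dissociation moved with the 10 genes in part. Of 20 basal and 19 suprabasal loci of cytosolic heat shock genes, 2 were called lower in each layer and none higher, with medians of -0.32 and -0.14. Hspa1a and Hspa1b, the inducible Hsp70 genes, share a merged locus, which fell from 268 to 66.1 FPKM in basal and from 351 to 59.9 in suprabasal cells. Dnajb1, the Hsp40 partner of Hsp70, fell from 170.0 to 55.4 and from 131 to 37.4 FPKM. Hsp90ab1 was 691 and 816 FPKM in basal and 717 and 834 in suprabasal cells, so not all heat shock genes had lower levels. The calls of Hspa1a with Hspa1b and of Dnajb1 held in both layers when readjusted. The summed level of the list was 9452 and 2599 FPKM in basal cells, of which Hspa8, not called, made up 7624 and 1026, and 1895 and 1551 in suprabasal cells. A list of genes known to rise during tissue dissociation, with the 10 genes left out, had 5 of 22 loci called lower in basal and 3 of 21 in suprabasal cells, with medians of -0.75 and -1.05. Without the heat shock genes as well, 13 of 14 basal and 14 of 14 suprabasal loci (12 genes, with Btg1 and Cebpd at 2 loci each) were below 0, against 60.3% and 56.6% of all loci. Every gene of this dissociation list also stands in one of the lists above, so its calls repeat calls already given. The part of cell handling in the lower levels of the 10 genes was not tested.

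**Figure D4:**
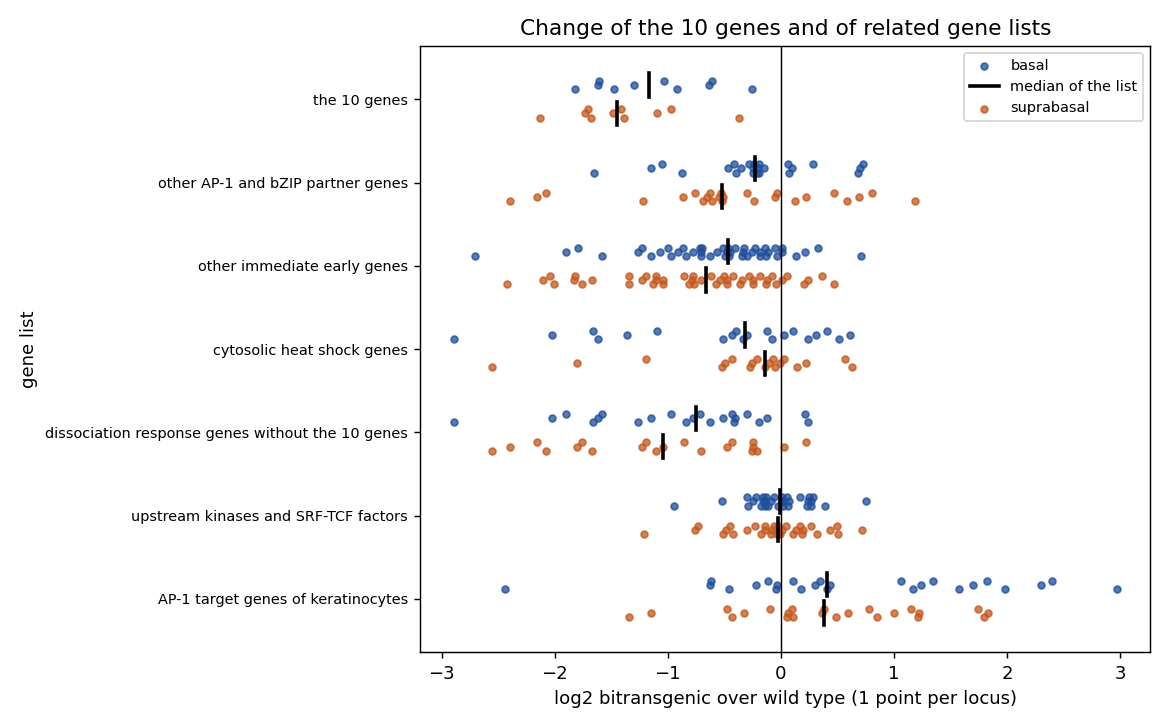
Change of every measured locus of 7 gene lists, as log2 bitransgenic over wild type, in basal (blue) and suprabasal cells (orange), with a black bar at the median of each list. The lists overlap, and every dissociation response gene shown also stands in another list. The 10 genes and the dissociation response genes have medians below those of the other lists, the upstream kinases and serum response factor partners centre on 0, and the AP-1 targets lie mostly above 0.

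The loci whose levels over the 4 groups were most like those of Fos were sought among 4584 single-gene loci of at least 20 FPKM, by the Euclidean distance between log2 levels after subtracting each gene's mean. The nearest was Gas1, a growth arrest gene and Hedgehog co-receptor, with 53.0, 16.0, 38.4 and 15.5 FPKM in basal wild type, basal bitransgenic, suprabasal wild type and suprabasal bitransgenic cells (distance 0.0923). Cdc42ep5, Gas6, Polr1d and Megf6 followed, at distances of 0.256 to 0.297. Fosb (0.188) and Egr1 (0.275) were as near to Fos as these. For Junb the nearest were Mettl7a1 (0.252), the heat shock gene Dnajb1 (0.263), the inhibitors of basic helix-loop-helix factors Id1 (0.276) and Id3 (0.340), and Cdc42ep5 (0.438). Ier2 was the member nearest to Junb, at 0.310.

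Markers of the sorted cells and of other cell types were read beside these results. All 12 keratinocyte markers were measured in both layers, with median changes of -0.35 in each. Below 0 were 10 in basal and 8 in suprabasal cells, against 60.3% and 56.6% of all loci. Krt15, a basal keratin, was the only one called in both, at 1602 and 308 FPKM in basal and 1025 and 124 in suprabasal cells. Its basal call was lost on readjustment (0.0941). Krt10, a suprabasal keratin, was not called, at 2319 and 1601 FPKM in basal and 6574 and 2354 in suprabasal cells. The merged locus of Krt14 and Krt16 was 4375 and 3926 FPKM in basal and 1994 and 1534 in suprabasal cells, also not called. Of 8 melanocyte markers 3 were measured in basal cells, with summed levels of 8.38 and 12.9 FPKM, and all 8 in suprabasal cells, with sums of 2073 and 3843 FPKM in wild type and bitransgenic groups. The suprabasal sort thus held melanocyte RNA, led by Dct with 1122 and 2012 FPKM, although none of the 8 was called and 3 were higher at an unadjusted p under 0.05. Fibroblast markers summed to 45.3 and 64.1 FPKM in basal and 352 and 548 in suprabasal cells. Most of the former was Thy1 (28.7 and 51.9) and most of the latter Vim (316 and 492), so each sum rests mainly on 1 gene. Col1a1, Col1a2 and Col3a1 were only between 3.02 and 10.4 FPKM in suprabasal cells. Leukocyte markers, 2 of 10 measured, summed to between 8.03 and 16.9 FPKM. Of 6 endothelial markers none was listed in either table, and of 6 muscle markers only Tnni2 was listed, in basal cells, with 9.44 and 1.08 FPKM. The part of these cells in the suprabasal levels of the 10 genes was not tested. In RNA of sorted populations, fewer cells expressing a gene and less RNA of it per cell cannot be told apart.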

How the data were processed

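RNA from sorted basal and suprabasal keratinocytes was sequenced in 10 samples. Per the submitters' processing notes, reads were handled with TopHat and Cufflinks on mm10, with no versions named. For each layer the authors deposited a table in the form of Cuffdiff output, with 1 pooled level per genotype, read as FPKM from that form since the header names no unit. The table's log2 ratios, its test score (not used here), and its p-value and q-value were deposited by the authors. How libraries were scaled is not given in the sources used here, and the depth per sample is unknown. Nothing says that all samples of a group are separate animals, so the authors' p may cover technical spread only.

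Loci of status OK were used, and 26 loci per table with status HIDATA were left out. The SE of a log2 change is its size over the normal quantile of the authors' two-sided p. Differences between layers were tested with a Wald z-test that treats the layers as independent, with Benjamini-Hochberg adjustment over all loci. Both steps were run on simulated data with normal errors and independent layers. Such a run checks the computation, and cannot show whether the authors' p or these layers meet those 2 assumptions. Computing used Python 3.11.15 with pandas, numpy and scipy. Alternatives were readjusted p, centring on the median of loci of at least 1 FPKM, a minimum of 5 FPKM, q of 0.01 and 0.10, single-gene loci, a 2-fold rule, pseudocounts of 1 and 5 FPKM, an assumed correlation of 0.5 between layers, and the AP-1 subunits with Atf3 alone.

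The members and gene lists were chosen with earlier results of these data known. All 10 members are named. In the list of other AP-1 and basic leucine zipper genes, 1 gene was left out and is not reported here. Of each other list, up to 8 called genes were eligible by smallest p, or the first 3 measured where none was called, and the 5 loci nearest to Fos and to Junb are named. Hsp90ab1, Hspa8, Fosl1, Map2k6, Nr4a1, Ptgs2, Krt10, Krt14, Thy1, Col1a1, Col1a2, Col3a1, Vim and Dct were named after their values were seen. Promoters are RefSeq windows of GRCm38.p6, and gene models are GENCODE M21, using for each gene the longest coding transcript with a CCDS entry.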

Additional observations from a re-analysis of the deposited data

How the results depend on the processing

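The count of genes called lower in basal cells was 5 at the authors' q of 0.05. It was 2 after Benjamini-Hochberg adjustment over all loci, 1 with centred and readjusted changes, 2 with a minimum of 5 FPKM and readjustment, and 2 at a q of 0.01. In suprabasal cells the count of 3 became 0 at a q of 0.01 and 8 under the 2-fold rule. The authors' smallest suprabasal p, 5e-05, has a q of 0.0161, so no suprabasal locus passes a q of 0.01. That count of 0 was fixed by the table and is no result on the 10 genes. The cause of the other shifts in these counts was not tested beyond what the thresholds set. The other alternatives kept both counts within 1.5 times, and none moved a median by more than the median SE of the 10 genes or turned its sign. The count of genes that differed between layers was 0 with centring, with a minimum of 5 FPKM, at an unadjusted p and with an assumed correlation of 0.5. With the last 2 settings together, added after the data were seen, it was 1 (Jund). Of the 20 single changes (10 genes in 2 layers), 3 lost their call on readjustment (Fos, Fosb and Fosl2 in basal cells) and 5 with centring (those 3, Ier2 in basal and Jund in suprabasal cells), and none changed sign. For Ier2 the SE is an upper bound, so its loss with centring is not settled. No paired analysis was possible because the tables hold 1 pooled value per group, and leaving out each replicate was not run for the same reason.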
